A study of Mus musculus with 14 samples.

Results

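The 6 genes for insulin-like growth factor (IGF) binding proteins in these data, Igfbp2, Igfbp3, Igfbp4, Igfbp5, Igfbp6 and Igfbp7, were matched by symbol to the gene identifiers of each table. All 6 were among the 14837 genes of the RNA-seq (input) table, 4 were among the 9416 genes of the m6A-RIP table, 2 among the 3493 genes of the Lin28a-RIP table and 1 among the 4527 genes of the Igf2bp3-RIP table. The series compares Lin28a+ mouse muscle stem cells (MuSCs), which the study sorted by flow cytometry from skeletal muscle of Lin28a-CreERT2; LSL-tdTomato mice, with control MuSCs, whose genotype the labels give only as control. Both were maintained in DMEM with fetal bovine serum on Matrigel, and the input libraries are labelled as untreated. Each of the 7 groups holds 2 libraries: input, m6A-RIP and Igf2bp3-RIP of both kinds of cells, and Lin28a-RIP of Lin28a+ MuSCs. The tdTomato label follows the activity of a Lin28a-driven Cre, so a Lin28a+ cell is defined by that Cre and not by a measured Lin28a level, and the sources used here give neither the age nor the number of mice behind a library. They do not state for these libraries whether the 2 libraries of a group came from separate cultures or animals, and if they did not, the p-values measure technical spread only. The study's methods state, for its experiments in general, a higher minimum of biological replicates than the number of libraries held by each group here.

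IGF-I and IGF-II act through the IGF-I receptor to promote growth, survival and differentiation of myoblasts, and in tissue most of both ligands is held by secreted binding proteins. Igfbp2 to Igfbp6 bind IGFs with high affinity and either keep them from the receptor or release them near it after cleavage by proteases such as Pappa, while Igfbp7 binds IGFs weakly and is known as a matrix-associated relative. Igf2bp3, the protein pulled down in one of the assays, is an RNA-binding protein first named for binding Igf2 mRNA and is not a member of this secreted family. In RIP-seq, RNA that an antibody pulls down is sequenced, and m6A-RIP uses an antibody against N6-methyladenosine, a methyl mark on adenosine in mRNA.

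Igfbp2 and Igfbp5 are neighbours that point towards each other, and all 4 Igf2bp3-RIP and Lin28a-RIP peaks annotated to the family lay on the Igfbp5 side of the pair. In RefSeq's annotation of GRCm38.p6, Igfbp2 spans chr1:72824480-72852474 on the plus strand and Igfbp5 spans chr1:72858065-72874865 on the minus strand, which leaves 5590 bases between the 3′ ends of the pair. Igfbp3 and Igfbp4 lie apart from each other on chromosome 11, Igfbp6 lies on chromosome 15 and Igfbp7 lies on chromosome 5, where its span of 58806 bases is the longest of the 6. One Lin28a-RIP peak ran over the start of Igfbp5 and 129 bases beyond it, so the promoter window of Igfbp5 is printed (RefSeq, GRCm38.p6, chr1:72874816-72875115, minus strand, 250 bases before and 50 from the start). The 179 bases that the peak covers are in capitals.
Igfbp5 promoter: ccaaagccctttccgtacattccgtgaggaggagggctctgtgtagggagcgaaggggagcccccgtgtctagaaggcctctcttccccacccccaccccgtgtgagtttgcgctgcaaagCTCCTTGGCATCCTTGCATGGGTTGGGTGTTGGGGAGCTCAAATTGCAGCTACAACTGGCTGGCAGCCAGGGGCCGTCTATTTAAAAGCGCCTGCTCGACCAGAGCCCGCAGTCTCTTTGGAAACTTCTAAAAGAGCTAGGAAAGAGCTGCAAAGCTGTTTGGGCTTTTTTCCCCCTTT
Over both strands the window held GGAG, 4 letters that Lin28 proteins are known to bind in RNA, 6 times, while the median over 32851 promoter windows of this length was 4 and 96.7% of them held it at least once. Most of these matches lay outside the bases in capitals. Matches on either strand were counted, so the number is not one of GGAG in Igfbp5 RNA. The window held no GGAC, a core of the m6A consensus, which 87.7% of the windows held.

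The summed counts per library were 4842915 to 6220960 in input, 21350962 to 31830638 in m6A-RIP, 9215355 to 34142094 in Igf2bp3-RIP and 33908110 to 36610494 in Lin28a-RIP. The libraries of a group differed more in Igf2bp3-RIP than in any other assay: for whole-number counts averaging 20 to 2000, the ratio of chi-square to its degrees of freedom within a pair was 33.5 and 36.4 there, and 1.62 to 3.82 in the other assays (1 is expected from counting alone). Fractional values were left out, so the input ratios rest on 568 and 576 genes, beside 16480 to 17927 rows in the RIP assays. Of the myogenic progenitor markers, 9 of 9 were in the input table and summed to 14300 and 14900 CPM (each count scaled to a library total of 1e+06) in control and to 12100 and 12300 CPM in Lin28a+ libraries. The highest of them in control libraries was Chrna1, at 5793 and 5985 CPM against 3137 and 3196 CPM in Lin28a+ libraries. That fall was larger than the fall of the sum. Cdh15 was at 1295 and 1388 CPM in control and at 2286 and 2373 CPM in Lin28a+ libraries. Of the 9, 2 were called higher and 5 lower, which is 22.2% and 55.6% beside 28.1% and 28.7% of all genes tested. Pax7 was at 139 and 154 CPM in control libraries against 194 and 190 CPM in Lin28a+ libraries, while Myf5 was at 441 and 464 against 198 and 202 CPM and Vcam1 at 16.4 and 18.3 against 4.00 and 5.28 CPM. Endothelial and macrophage markers were low: the endothelial list, 1 of 6 in the table, had only Pecam1, at 0.50 CPM or less, and the macrophage list, 4 of 5 in the table, summed to 0.82 to 2.81 CPM. Other lists that were not low are given with the results they move beside.

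In RNA, the family split: Igfbp2 and Igfbp5 rose in Lin28a+ MuSCs, Igfbp3, Igfbp6 and Igfbp7 fell, and Igfbp4 was too low to test. In edgeR's quasi-likelihood test with Benjamini-Hochberg adjustment over all 11317 genes that passed the filter on low counts, 5 of the 5 members that passed it were called at an adjusted p under 0.05. The background was high, since 56.9% of all genes tested were called, 28.1% as higher and 28.7% as lower. DESeq2 called 3039 of the same genes, 1479 as higher and 1560 as lower. The libraries of both kinds of cells did not overlap in CPM for any of the 6 members, as was the case for 76.7% of all genes in the input table. These are bulk libraries, so a change in the share of cells that express a gene cannot be told apart from a change in RNA per cell.

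Igfbp5, which binds matrix as well as IGFs and is known for its expression in differentiating myoblasts, was at 728 and 758 CPM in the control libraries and at 1815 and 1811 CPM in the Lin28a+ libraries. Means were 743 ± 20.9 and 1813 ± 2.83 CPM (SD, n = 2). Both Lin28a+ libraries lay above both controls, and Igfbp5 was 2.39-fold higher (log2 fold change 1.26, SE 0.02, edgeR adjusted p = 3.65e-06). Igfbp2, which prefers IGF-II and also binds integrins through an RGD motif, was at 577 and 601 CPM in control and at 1037 and 1017 CPM in Lin28a+ libraries. Means were 589 ± 16.8 and 1027 ± 14.1 CPM (SD, n = 2). The groups were again apart, and Igfbp2 was 1.71-fold higher (log2 fold change 0.77, SE 0.02, adjusted p = 1.16e-05). Read within a library, the input held 1.26 counts of Igfbp5 per count of Igfbp2 in each of the 2 control libraries and 1.75 and 1.78 in the Lin28a+ libraries. The input table gives 1 value per gene and no transcript, so whether the value of Igfbp2 holds reads from the region of Igfbp5 described below cannot be told apart.

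Igfbp7 was at 41.6 and 43.4 CPM in control and at 12.2 and 11.4 CPM in Lin28a+ libraries. It was 3.67-fold lower (log2 fold change -1.88, SE 0.06, adjusted p = 1.34e-05), which was the lowest p among the 3 members that fell. Igfbp3, the main carrier of IGFs in serum, was at 132 and 125 CPM in control and at 96.0 and 97.0 CPM in Lin28a+ libraries. Its change was the smallest of the called members, 1.35-fold lower (log2 fold change -0.43, SE 0.05, adjusted p = 0.00063).

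Igfbp6, which prefers IGF-II over IGF-I, rested on few reads: 35 and 36 counts in control and 4 and 10 in Lin28a+ libraries, or 6.40 and 5.79 against 0.79 and 2.07 CPM. The groups did not overlap, and Igfbp6 was 4.33-fold lower (log2 fold change -2.11, SE 0.32, adjusted p = 0.00219). Its size depended on 1 library: without Lin28a+ input library b the log2 fold change was -2.93 and without library a it was -1.58, with the call kept both times. Igfbp4, an inhibitor of IGF action that Pappa cleaves, had 4.82 and 6.79 estimated counts in control and 1.81 and 2.40 in Lin28a+ libraries. It fell below the filter on low counts, and in a fit without that filter its adjusted p was 0.152.

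**Figure D1:**
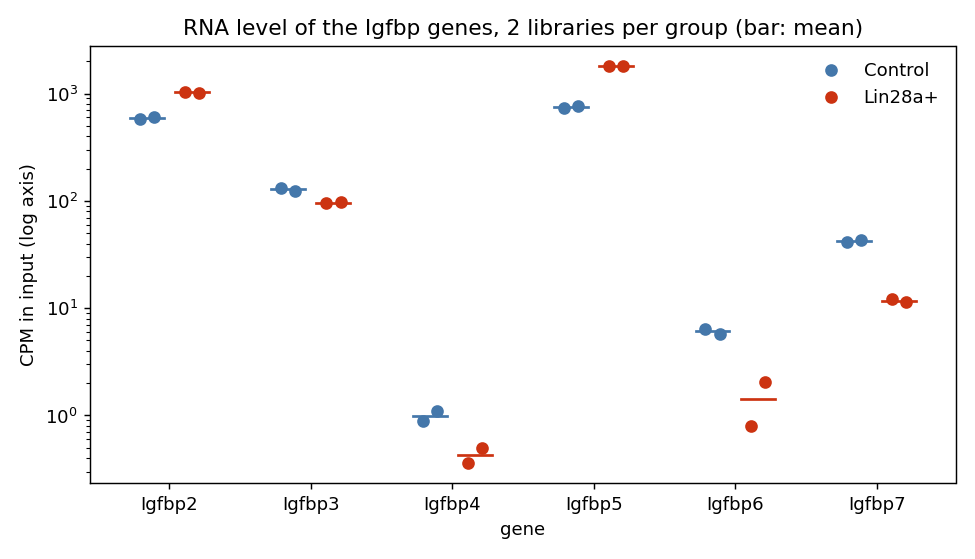
CPM of the 6 Igfbp genes in the input libraries on a log axis, with a point per library (blue control, red Lin28a+) and a bar at the mean of 2. Igfbp2 and Igfbp5 lie higher in both Lin28a+ libraries, the other 4 lie lower, and Igfbp4 is near or below 1 CPM throughout.

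In m6A-RIP, the 4 members with rows changed in the directions of their RNA, and 6 of their 6 rows were called, beside 61.8% of all 18881 rows. The CPM of the groups did not overlap for any of the 6 rows, nor for 80.5% of all rows. Igfbp3 (ENSMUST00000020702) was at 121 and 123 CPM in control and at 86.4 and 91.5 CPM in Lin28a+ libraries, 1.23-fold lower (log2 fold change -0.30, SE 0.05, adjusted p = 0.000296). Igfbp7 (ENSMUST00000046746) was at 14.8 and 12.2 CPM in control and at 2.27 and 4.33 CPM in Lin28a+ libraries, 3.61-fold lower (log2 fold change -1.85, SE 0.23, adjusted p = 8.22e-06). Igfbp5 (ENSMUST00000137339) was at 203 and 217 CPM in control and at 460 and 455 CPM in Lin28a+ libraries, 2.42-fold higher (log2 fold change 1.28, SE 0.05, adjusted p = 2.94e-11). Neither Igfbp4 nor Igfbp6 had a row in any RIP table.

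Igfbp2 was annotated to 3 m6A-RIP rows that rose by unequal amounts. The row of ENSMUST00000047328 was at 55.8 and 55.4 CPM in control and at 81.2 and 81.6 CPM in Lin28a+ libraries, 1.63-fold higher (log2 fold change 0.70, 95% interval 0.59 to 0.82). The weaker row of ENSMUST00000155703 was at 182 and 187 CPM in control and at 290 and 284 CPM in Lin28a+ libraries, 1.73-fold higher (0.79, interval 0.69 to 0.89). The stronger row of ENSMUST00000155703 was at 893 and 883 CPM in control and at 1995 and 1943 CPM in Lin28a+ libraries, 2.47-fold higher (1.30, interval 1.23 to 1.38). The interval of the stronger row overlapped that of the Igfbp5 row, 1.17 to 1.38, and lay above those of the other Igfbp2 rows. The rows of ENSMUST00000155703 made up 95.1% of the m6A-RIP counts annotated to Igfbp2 in each control library and 96.5% to 96.6% in the Lin28a+ libraries.

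Ratios of rows within a library need no scaling and showed the same split. The stronger row held 4.39 and 4.07 counts per count of the Igfbp5 row in control libraries and 4.34 and 4.28 in Lin28a+ libraries, so the groups overlapped. Against the row of ENSMUST00000047328, the stronger row held 16.0 and 15.9 counts in control and 24.6 and 23.8 in Lin28a+ libraries, which did not overlap. The weaker row held 3.27 and 3.37 counts per count of ENSMUST00000047328 in control and 3.57 and 3.49 in Lin28a+ libraries, a smaller gap. The m6A-RIP table gives no positions, so where its 2 rows of ENSMUST00000155703 lie was not analysed.

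**Figure D2:**
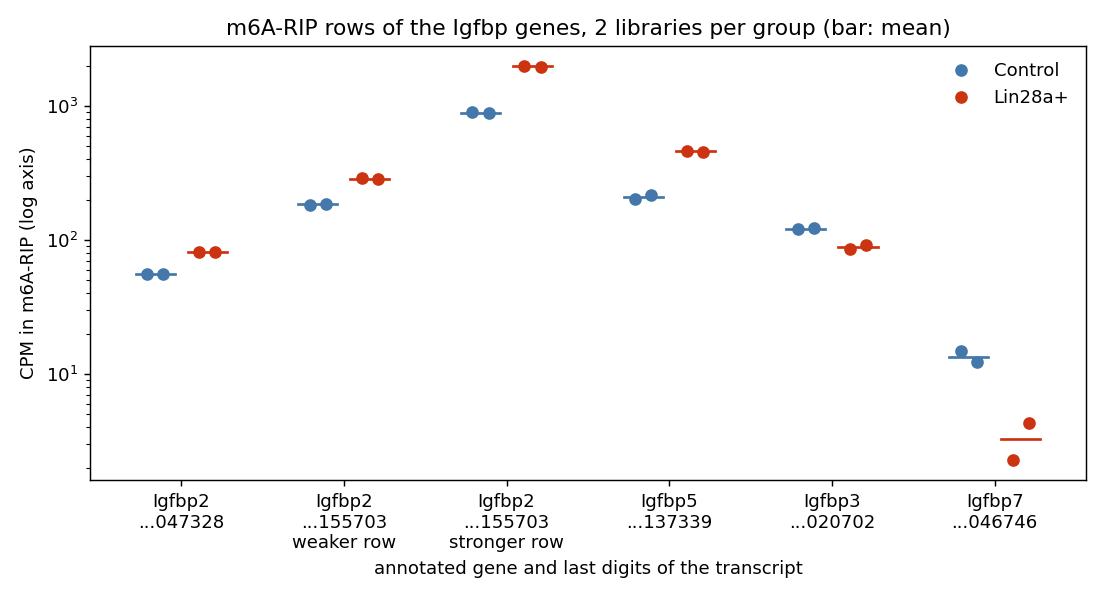
CPM of the 6 m6A-RIP rows annotated to Igfbp genes on a log axis, with a point per library (blue control, red Lin28a+) and a bar at the mean of 2. The stronger row of ENSMUST00000155703, near 2000 CPM in Lin28a+ libraries, is the highest of the rows in every library.

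With rows summed per gene, 4 of 4 members were called, beside 66.3% of 9416 genes. The m6A-RIP increase was 2.34-fold for Igfbp5 (log2 fold change 1.22, SE 0.04, adjusted p = 1.93e-10) and 2.22-fold for Igfbp2 (1.15, SE 0.03, adjusted p = 3.45e-11). A model over both assays then asked whether the m6A-RIP change of a gene differed from its RNA change, and 7.11% of the 7951 genes tested were called. Igfbp2 was the only member called: its m6A-RIP rose 1.29-fold more than its RNA (log2 difference 0.37, SE 0.04, adjusted p = 0.000228). For Igfbp5 the difference was -0.04 (95% interval -0.14 to 0.06), for Igfbp3 it was 0.08 (-0.08 to 0.23) and for Igfbp7 it was -0.03 (-0.70 to 0.64), and these 3 did not pass the test.

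The call for Igfbp2 ended when the rows of ENSMUST00000155703 were counted under Igfbp5, an alternative chosen after the positions of the peaks below had been seen. The m6A-RIP change of Igfbp2 was then 0.65 (log2, SE 0.05, adjusted p = 4.08e-07), and its difference from RNA was -0.13 (SE 0.04, adjusted p = 0.121). Igfbp5 moved little, with a change of 1.18 (SE 0.03, adjusted p = 2.37e-11) and a difference from RNA of -0.08 (SE 0.04, adjusted p = 0.292). This alternative moved both rows. The change of the weaker row, 0.79, lay near that of Igfbp2 in RNA, 0.77, and below that of the Igfbp5 row, 1.28. Moving the stronger row alone was not tested.

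The level of m6A-RIP relative to RNA turned on the same rows. As annotated, the log2 ratio of m6A-RIP to input, both as CPM plus 1, was 0.94 for Igfbp2 in control MuSCs and 1.18 in Lin28a+ MuSCs, with medians over 7951 genes of 0.70 and 0.55. The ratio of Igfbp3 was -0.07 in control and -0.12 in Lin28a+ MuSCs, that of Igfbp7 was -1.59 and -1.61, and that of Igfbp5 was -1.82 and -1.98, all below the median. With both rows of ENSMUST00000155703 under Igfbp5, the ratio of Igfbp5 became 0.79 in control and 0.58 in Lin28a+ MuSCs, close to the median. That of Igfbp2, left with the row of ENSMUST00000047328 alone, became -3.38 and -3.64, below that of 7787 and 7795 genes.

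**Figure D3:**
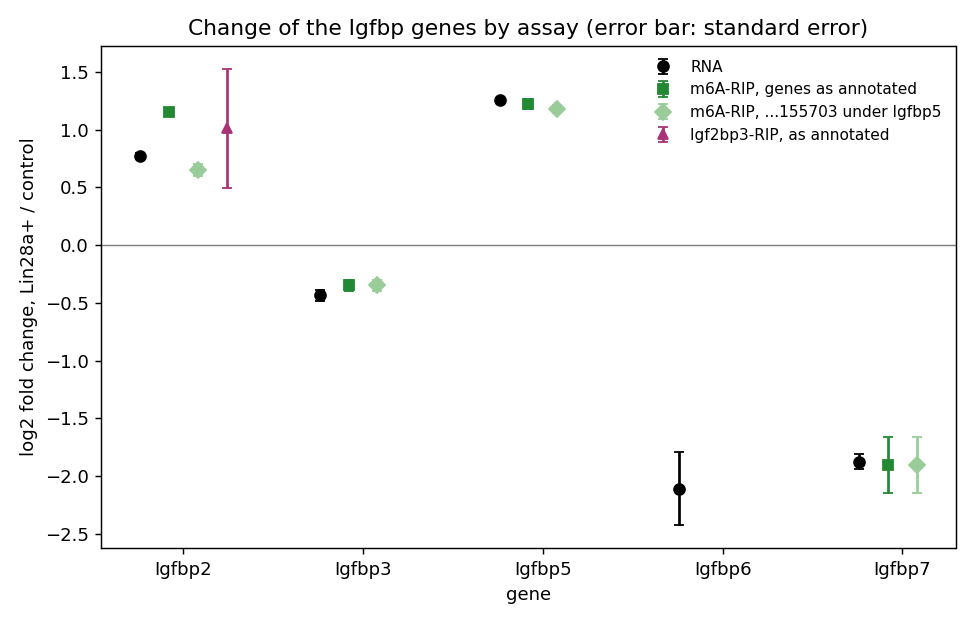
Log2 fold change of each Igfbp gene, Lin28a+ over control, in RNA (black), m6A-RIP as annotated (dark green), m6A-RIP with ENSMUST00000155703 under Igfbp5 (light green) and Igf2bp3-RIP as annotated (purple), with standard errors. Igfbp2 is the gene whose m6A-RIP point moves with the assignment, from 1.15 to 0.65, across its RNA value of 0.77.

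Lin28a-RIP, made in Lin28a+ MuSCs only, held 3 peaks over Igfbp5 and none over the span of any other member. The widest was annotated to Igfbp2 through ENSMUST00000155703 but lay at chr1:72858130-72862615, entirely inside the Igfbp5 span and 5656 bases from that of Igfbp2. Its 4486 bases held 96414 and 87436 counts in the 2 libraries, or 587 and 575 CPM per kb, a level that 1.4% and 1.46% of the 21616 peaks exceeded. The peaks annotated to Igfbp5 itself lay at chr1:72863894-72864248, with 523 and 505 CPM per kb, and over the start of the gene at chr1:72874024-72874994, with 421 and 428 CPM per kb. The median peak of these libraries was at 62.9 and 63.4 CPM per kb, so all 3 stood well above it, and the libraries differed by less than the 3 peaks did. The widest peak held 81.6% and 81.3% of the counts of the 3, and together they reached 3228 and 3173 CPM.

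Igf2bp3-RIP held 1 wide peak at the same place. It ran from the first base of the Igfbp5 span to chr1:72862566, covered 4502 bases and was likewise annotated to Igfbp2, whose span is 5591 bases away. The wide peaks of the 2 proteins shared 4437 bases, which is 98.6% of the Igf2bp3-RIP peak and 98.9% of the Lin28a-RIP peak. Since Igfbp5 runs on the minus strand, the low end of its span is its 3′ end, so both wide peaks lay on the last part of that gene. The sources used here do not state whether reads were counted by strand, so reads of Igfbp5 and of an opposite-strand transcript there cannot be told apart. Such placement was not rare in these tables: 17.84% of Igf2bp3-RIP peaks and 13.1% of Lin28a-RIP peaks lay outside the RefSeq span of their annotated gene and inside that of another coding gene.

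**Figure D4:**
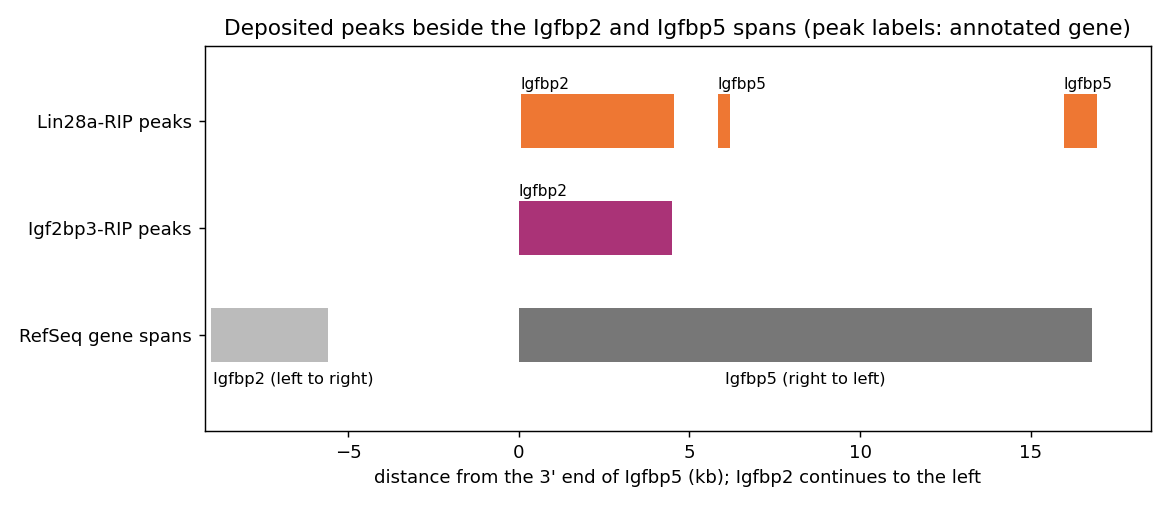
RefSeq spans of Igfbp2 and Igfbp5 (grey) and the deposited peaks of Igf2bp3-RIP (purple) and Lin28a-RIP (orange), by distance in kb from the 3′ end of Igfbp5, with each peak labelled by the gene it was annotated to. Both wide peaks labelled Igfbp2 start at or within 65 bases of the 3′ end of Igfbp5, and Igfbp2 itself ends 5590 bases before it.

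Igf2bp3-RIP of the wide peak did not pass the test between cells in the fit without a replicate block. The peak held 2023 and 1476 CPM in control libraries, or 449.3 and 327.9 CPM per kb, and 5517 and 1836 CPM in Lin28a+ libraries, or 1225 and 408 CPM per kb. Lin28a+ replicate 2 fell between the control libraries, so the groups overlapped, as they did for all but 31.8% of peaks, and only Lin28a+ replicate 1 stood apart. Within each replicate number the Lin28a+ library was the higher, though the sources used here do not state what libraries of a number share. The peak was 2.07-fold higher in Lin28a+ MuSCs (95% interval 0.81 to 5.33, log2 fold change 1.05, SE 0.57, edgeR adjusted p = 1.00), in a test that called 0.123% of 19465 peaks. Summed per gene the change was 1.01 (SE 0.51, adjusted p = 0.678, with 0.287% of 4527 genes called). Without Lin28a+ replicate 1 the log2 fold change of the peak was 0.02, and without Lin28a+ replicate 2 it was 1.65. In a fit with a replicate block the peak was called (log2 fold change 0.85, edgeR adjusted p = 0.0188). Summed per gene it was not called in that fit (0.85, edgeR adjusted p = 0.0898).

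Relative to RNA, the Igf2bp3-RIP change of Igfbp2 as annotated was 0.01 on the log2 scale (SE 0.59, adjusted p = 0.997), and 0.967% of 3928 genes were called. Under Igfbp5 it was -0.47 (SE 0.59, adjusted p = 0.676). Leaving out Lin28a+ Igf2bp3-RIP replicate 1 moved the annotated value to -0.90 with an adjusted p of 0.0499, the only fit with 1 library left out in which it was called. A value so near 0 also changed sign in other fits, so no direction is given for it. The log2 ratio of Igf2bp3-RIP to input for Igfbp2 was 1.55 in control MuSCs (spread over libraries 0.32) and 1.63 in Lin28a+ MuSCs (1.12), with medians over all genes of 1.45 and 1.72. The Lin28a+ ratio was 0.84 without Lin28a+ replicate 1 and 2.42 without replicate 2, on either side of that median. With the peak counted under Igfbp5, the ratio of Igfbp5 was 1.22 in control and 0.81 in Lin28a+ MuSCs, with the same spreads. The log2 ratio of Lin28a-RIP to input was 1.34 for Igfbp2 and -1.61 for Igfbp5 as annotated, and 0.82 for Igfbp5 with the wide peak counted there, with a median over genes of 1.71. RNA of Igf2bp3 itself was at 11.3 and 10.7 CPM in control and at 35.8 and 34.3 CPM in Lin28a+ libraries.

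No peak of either protein lay in the spans of Igfbp3, Igfbp4 or Igfbp6. At the 3′ end of Igfbp7 lay a weak Igf2bp3-RIP peak of 200 bases, chr5:77349381-77349580, which was annotated to the neighbouring gene Polr2b. It held 39 and 146 counts in control and 99 and 191 in Lin28a+ libraries, or 21.2 and 26.5 against 39.2 and 28.0 CPM per kb. These levels were below the median peak, which lay between 70.6 and 73.1 CPM per kb.

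Around the binding proteins, more genes of an IGF system list, chosen with earlier results of these data known, fell than rose in RNA. Beside ligands, receptors, adaptors and proteases, the list holds matrix partners, relatives with an Igfbp-type domain and Igf2 mRNA-binding proteins. Of its 44 genes in 8 roles, 39 genes in 7 of the roles were in the input table and 31 passed the filter. Of those, 6 were called higher and 19 lower, which is 19.4% and 61.3% beside the 28.1% and 28.7% of all genes, and the median log2 fold change was -0.37 beside 0.01 over all genes tested. DESeq2 called 4 of the list higher and 13 lower. Of the 26 genes with m6A-RIP rows, 5 were called higher there and 17 lower, which is 19.2% and 65.4% beside 32.5% and 33.8% of all genes in that table.

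Among ligands, Igf2, the fetal growth factor, was at 862 and 902 CPM in control and at 86.0 and 87.9 CPM in Lin28a+ libraries (log2 fold change -3.37, SE 0.03, adjusted p = 1.15e-06). Igf1 was below the filter, at 0.69 CPM or less in every library. Of the 3 receptors, 2 were called lower and none higher (66.7% and 0%, beside 28.7% and 28.1% of all genes). They were Insr, the insulin receptor, at -0.72 on the log2 scale (SE 0.08, adjusted p = 0.000746), and Igf1r, the signalling receptor, at -0.34 (SE 0.06, adjusted p = 0.00895). Igf2r, which clears IGF-II, was at 237 to 245 CPM throughout (log2 fold change -0.01, adjusted p = 0.916). Of 3 tested adaptors, 1 was called higher, Irs2 at 1.09 (SE 0.07), and 1 lower, Irs1 at -0.35 (SE 0.05). That is 33.3% each way, near the 28.1% and 28.7% of all genes.

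Of 9 tested proteases and inhibitors, 2 were called higher and 4 lower, which is 22.2% and 44.4% beside the 28.1% and 28.7% of all genes. Adamts1, a matrix protease, rose by 1.12 on the log2 scale (SE 0.10), while Adam9 fell by 0.89 (SE 0.04) and Stc1, a secreted stanniocalcin, fell by 0.89 (SE 0.14). Of 7 cell-surface and matrix partners, 2 were called higher, Tmem219 at 0.53 and Itga5 at 0.42, and 5 were lower (28.6% and 71.4%, beside the same background), with Itgav at -1.16 and Lrp1, an endocytic receptor, at -1.05. Of 6 relatives that carry an Igfbp-type domain, 5 were lower and none was higher (83.3% and 0%, beside 28.7% and 28.1% of all genes), with Ccn3 at -2.44 (SE 0.24), Ccn2 at -2.02 (SE 0.06) and Ccn5 at -1.07 (SE 0.28). Of 2 tested Igf2 mRNA-binding proteins, Igf2bp3 was called higher at 1.65 (SE 0.07) and Igf2bp2 lower at -0.31 (SE 0.06), which is 50% each way.

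**Figure D5:**
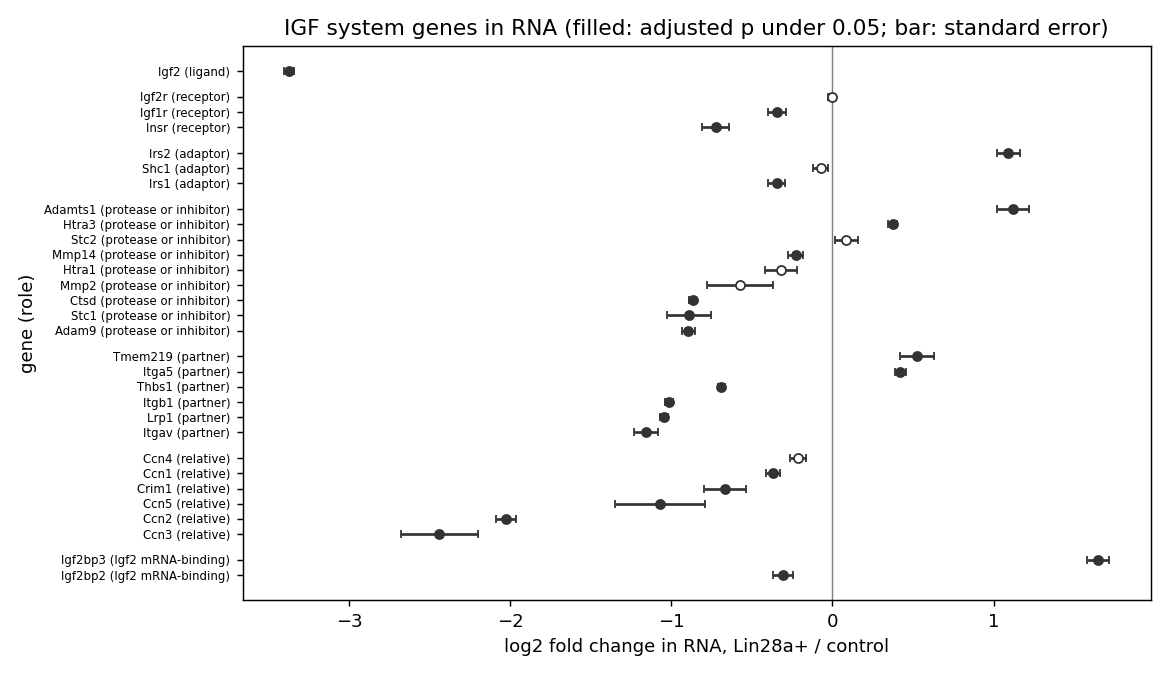
Log2 fold change in RNA, Lin28a+ over control, of tested genes of the IGF system list by role (1 of the 31 is not shown), with standard errors and filled points for adjusted p under 0.05. Igf2 at -3.37 and Igf2bp3 at 1.65 mark the ends of the range, and no relative with an Igfbp-type domain lies above 0.

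Markers of other states moved beside these genes. Myog, a driver of myoblast differentiation, was at 748 and 774 CPM in control and at 2785 and 2837 CPM in Lin28a+ libraries, though of the 8 differentiation markers 3 were called higher and 5 lower (37.5% and 62.5%, beside 28.1% and 28.7% of all genes tested), and they summed to 5560 and 5730 CPM in control and to 5550 and 5590 CPM in Lin28a+ libraries. The pericyte or smooth muscle list, 4 of 5 in the table, summed to 5320 and 5400 CPM in control and to 7490 and 7500 CPM in Lin28a+ libraries, nearly all of it Acta2, with Myh11 at 0.08 CPM or less. Of its 3 tested genes, Acta2 and Pdgfrb were called higher and the pericyte marker Rgs5 lower, with control libraries at 2.38 and 2.09 CPM and Lin28a+ libraries at 0.20 and 0.21 CPM. The tenocyte list, 2 of 3 in the table, summed to 66.9 and 68.8 against 143 and 148 CPM, nearly all of it Scx. The fibro-adipogenic list, 5 of 8 in the table, summed to 122 and 126 against 131 and 132 CPM, most of it Col3a1 at 117 to 120 CPM, with Pdgfra at 0.24 CPM or less. Of its 2 tested genes, Ly6a was called higher (3.84 and 4.58 against 13.6 and 12.7 CPM, log2 fold change 1.61). The Schwann or glial list, 2 of 4 in the table, stayed under 1 CPM. The part of these states in the changes of the Igfbp genes was not tested.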

How the data were processed

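Labels put 2 mouse libraries in each of 7 groups. The input table that the authors deposited holds estimated counts, some of them fractional, which were rounded before testing. For the RIP assays, the authors deposited whole-number counts per row or peak, with no scaling between libraries. The submitters' processing notes name FastQC, HISAT2 2.0.4, DESeq2 1.42.0 and MACS2 1.4.3 and the builds GRCh38 and mm10. The peak positions are those of mouse chromosomes and were set beside RefSeq spans of GRCm38.p6 only. The program that counted reads, its strand setting, the peak threshold and whether peaks were called on pooled libraries are not given in the sources used here. Whether a sum of counts equals a number of reads is therefore unknown for input. The Lin28a+ columns of input and m6A-RIP carry no usable replicate number and are called library a and b.

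CPM is a count divided by the library's summed counts and multiplied by 1e+06. Each comparison was fitted on the whole table in R 4.3.3 with edgeR 4.0.16 (TMM factors, filterByExpr with its minimum count of 10, quasi-likelihood test, Benjamini-Hochberg adjustment, threshold 0.05), with standard errors taken from the F statistic. The comparison of a RIP change with the RNA change was the interaction of cells and assay in a joint model, with TMM factors set within each assay. Log2 ratios used a pseudocount of 1 CPM. With 2 libraries per group, errors rest on a spread shared among genes. The tests were checked on simulated data. The members and lists were chosen with earlier results of these data known. Named besides the 6 members are up to 3 called genes of each role with the largest RNA change and, for each member, the 2 genes nearest in log2 fold change, except 2 genes that are not reported here. Igf2r, Igf1, Myog, Polr2b, Itga5, Tmem219 and the cell-type markers given with values were named outside this rule, after their values were seen. Lin28a itself was not analysed here. Alternatives were DESeq2 1.42.0, other size factors, total counts, other filters, a replicate block, another pseudocount, each library left out, and the rows of ENSMUST00000155703 under Igfbp5.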

Additional observations from a re-analysis of the deposited data

How the results depend on the processing

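In RNA, m6A-RIP per row and m6A-RIP per gene, every member that was called kept its direction and its call under every alternative run, leave-one-out included, except that Igfbp6 could not be fitted with at least 10 counts in every library. DESeq2 called 3039 genes in RNA in place of 6434, 263 Igf2bp3-RIP peaks in place of 24, 115 Igf2bp3-RIP genes in place of 13, 335 genes for m6A-RIP relative to input in place of 565 and 68 for Igf2bp3-RIP relative to input in place of 38. Total counts in place of TMM gave 7 Igf2bp3-RIP genes, 1048 genes for m6A-RIP relative to input (204 higher and 844 lower, beside 249 and 316, median -0.14) and 234 for Igf2bp3-RIP relative to input (200 higher and 34 lower, beside 13 and 25), where the median over genes shifted to 0.26 on the log2 scale. In m6A-RIP the same scaling moved the median row to -0.15 and split the calls as 3842 higher and 7638 lower per row, beside 5665 and 6005, and as 2395 and 3766 per gene, beside 3060 and 3179. It turned the difference of Igfbp3 between m6A-RIP and RNA to -0.0435, a value not called in either fit. With at least 10 counts in every library, edgeR called 0 Igf2bp3-RIP peaks, with 973 at an unadjusted p under 0.05. Leaving out 1 library gave 108 to 193 Igf2bp3-RIP peaks, 39 to 73 genes, 298 to 622 genes for m6A-RIP relative to input (298 to 354 without 1 of the input libraries) and 0 to 566 for Igf2bp3-RIP relative to input, 566 without Lin28a+ replicate 1. The 0 came from edgeR without any 1 of the 4 input libraries, with 488 to 523 genes at an unadjusted p under 0.05. Among values that were not called, these fits turned the sign of the m6A-RIP difference from RNA of Igfbp7 (-0.62 to 0.32, between Lin28a+ m6A-RIP library b and library a left out) and of Igfbp5 (-0.0867 to 0.00306, the latter without control m6A-RIP replicate 2). The Igf2bp3-RIP difference of Igfbp2 ranged from -0.90 to 0.60, and the lowest value, without Lin28a+ replicate 1, was called. DESeq2 gave -0.000114 for it. The sources used here do not say whether a replicate number of Igf2bp3-RIP marks a shared animal, culture or day, and the replicate difference of control and of Lin28a+ libraries correlated at r = 0.70 across 19465 peaks. With the replicate block, 1988 peaks, 374 genes and 1307 genes relative to input were called, the wide peak passed among all peaks at a log2 fold change of 0.85 (edgeR adjusted p = 0.0188) but not as a gene among all genes (0.85, adjusted p = 0.0898), and the difference of Igfbp2 from RNA was -0.16. TMM scaling moved the log2 ratios to input by more than the spread of libraries for m6A-RIP of Igfbp2 (0.88 in control and 1.24 in Lin28a+), of Igfbp3 in control (-0.13) and of Igfbp5 in Lin28a+ (-1.93), and for Lin28a-RIP of Igfbp5 (-1.60). Counting ENSMUST00000155703 under Igfbp5 reversed the difference of Igfbp2 (-0.13), its m6A-RIP ratios (-3.38 and -3.64) and the ratios of Igfbp5 (0.79 and 0.58 for m6A-RIP, 0.82 for Lin28a-RIP). Apart from those whose construction differs in rows or libraries, the cause was not tested.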

Other observations

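Genes that changed most like each member were found by the distance between log2 fold changes over the assays in which the member was fitted. For Igfbp5, over RNA and m6A-RIP of 7415 genes, they were Ttyh3 (1.26 and 1.24) and Pimreg (1.24 and 1.20). For Igfbp7 they were Car3 (-1.85 and -1.92), a muscle carbonic anhydrase, and Has2 (-1.83 and -1.90), a hyaluronan synthase. For Igfbp3 they were Laptm4b (-0.44 and -0.35) and Myc (-0.44 and -0.35). For Igfbp6, over RNA alone, the nearest was B4galnt1 (-2.11). For Igfbp2 as annotated, over RNA, m6A-RIP and Igf2bp3-RIP of 3128 genes, the nearest was Zfp334 (0.92, 0.93 and 1.00) at a distance of 0.26 and then Arhgef17 (0.84, 1.01 and 0.67) at 0.38. Distances over different numbers of assays and genes cannot be compared between members.

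Of the 39 IGF system genes in the input table, 14 had at least 1 Lin28a-RIP peak and 17 at least 1 Igf2bp3-RIP peak by annotation, which is 35.9% and 43.6% beside 20.4% and 26.5% of all genes in that table. These shares were not matched for RNA level. The endocytic receptor Lrp1 held 52 Lin28a-RIP peaks and 18 Igf2bp3-RIP peaks, and Igf2r held 30 and 13. Igf2 had no peak of either protein by annotation.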
